A study of Homo sapiens with 18 samples.

Results

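The genes described here are 48 genes of mitosis, chosen by name from the 23106 genes counted in polyA+ RNA of 3 established human cell lines. The list was made by their known place in cell division, with earlier results of these data known. All 48 had enough reads to be tested in every comparison. HKC-8 is a line of kidney proximal tubule cells, RCC4 a kidney carcinoma line and HepG2 a hepatocellular carcinoma line, and 3 normoxic and 3 hypoxic samples of each were sequenced, 18 samples in all. Hypoxic HKC-8 and HepG2 cells were labelled as kept at 0.5% oxygen for 16 h, but for HKC-8 cells the sample titles say 0.1%, and 21% for normoxia. RCC4 cells lack a working VHL protein, the factor that marks HIF for destruction in normoxia. The samples used here were labelled RCC4+VHL, that is, cells with VHL restored, and their hypoxia as 1% oxygen for 24 h. From here on, figures included, the name RCC4 stands for these VHL-restored cells. The study's text gives 0.5% for 16 h for all 3 lines, so a difference between RCC4 and the other lines cannot be told apart from a difference in exposure. No label says that the replicates were separate cultures, so the p-values measure only the spread between these samples.

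Mitosis is started by cyclin B bound to the kinase CDK1, and it ends when the anaphase-promoting complex, switched on by CDC20, marks cyclin B and securin for destruction so that sister chromatids part. Between these steps Aurora and Polo-like kinases build the spindle, the BUB and MAD proteins hold back anaphase until every kinetochore is attached, and condensin packs the chromosomes. Most of these genes are transcribed late in the cell cycle, repressed by the DREAM complex in resting cells and switched on by MYBL2 and FOXM1, so their mRNA tracks how many cells of a culture are dividing. In bulk RNA, fewer cells in late cell cycle and less of a transcript per cell cannot be told apart.

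Total counts per sample ran from 40915980 to 97984260 reads, with HKC-8 samples at 75441764 or above and the other lines at 51794355 or below. The lowest count of any member in any sample was 51, for CENPE in RCC4 cells. Levels are CPM, counts per 1000000 reads counted, after TMM scaling across all samples, and changes are log2 fold changes ± SE from edgeR's quasi-likelihood test within each line, called at a Benjamini-Hochberg adjusted p under 0.05 over all genes tested. Hypoxia was visible in every line, as all 10 listed hypoxia-induced genes were higher in HKC-8 and HepG2 cells and all 8 that were tested in RCC4 cells. That list was chosen with earlier results of these data known, so it is not an independent check. All 9 hepatocyte markers, albumin among them, were above 1 CPM in HepG2 cells. Their summed level was 35339 to 36829 CPM in normoxia and 42354.5 to 45926 CPM in hypoxia. In HKC-8 cells 7 of 12 kidney tubule markers had a mean under 1 CPM, among them the proximal tubule proteins LRP2, CUBN, AQP1 and SLC34A1, while PAX8, KRT8 and KRT18 were present. In RCC4 cells 3 of these 12 were under 1 CPM, and in HepG2 cells 6. In normoxia KRT8 and KRT18 had means of 1710 and 1135 CPM in HKC-8 and of 1924 and 906 CPM in HepG2 cells. PAX8 was at 165 and 9.43 CPM in these lines. KRT8 and KRT18 make up most of the sums that follow, so these sums do not tell kidney from liver cells. The 12 summed to 2867 to 2969 CPM in normoxic and 2335 to 2403 CPM in hypoxic RCC4 cells. In HepG2 cells their sum was 2777 to 3062 and 3774 to 4239 CPM, and in HKC-8 cells 2960 to 3146 and 2725 to 2983 CPM. The part of these shifts in the changes of the members was not tested. Hypoxic replicate 1 of RCC4 cells stood apart from replicates 2 and 3 in MKI67 and CENPF, whose changes are given with and without it. Leukocyte, endothelial and fibroblast markers summed to at most 14.7 CPM in any sample.

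Most of the promoters at hand for these genes carry sequence elements that the cell-cycle regulators read. The cell-cycle homology region (CHR), TTTGAA with its variant TTTAAA, is bound by DREAM, and the CCAAT box by NF-Y, an activator that works together with it. RefSeq promoters (GRCh38.p14, 250 bases before to 50 after the transcript start) were at hand for 41 of the 48 members, and not for AURKA, BUB3, TTK, BIRC5, TPX2, UBE2C and FOXM1. For a gene with several listed starts the start listed at the top was used. The 250 bases before the start are printed here, 5′ to 3′ on the plus strand, for the 4 core genes that head the list among those with a CHR, namely the cyclin CCNB1 (chr5:69166900-69167149), its kinase CDK1 (chr10:60778081-60778330), the anaphase activator CDC20 (chr1:43358731-43358980) and the Polo-like kinase PLK1 (chr16:23678639-23678888). The promoter of the cyclin CCNB2 (chr15:59104896-59105145) is added because this gene was called in no line without the replicate block described with the HKC-8 results. Capitals mark TTTGAA and its variant TTTAAA as well as CCAAT, read on either strand.
CCNB1: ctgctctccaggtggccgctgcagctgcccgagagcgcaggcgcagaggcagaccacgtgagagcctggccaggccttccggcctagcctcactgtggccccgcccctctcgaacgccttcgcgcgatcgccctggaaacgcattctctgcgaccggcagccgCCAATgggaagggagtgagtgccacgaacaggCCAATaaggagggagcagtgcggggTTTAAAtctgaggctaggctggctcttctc
CDK1: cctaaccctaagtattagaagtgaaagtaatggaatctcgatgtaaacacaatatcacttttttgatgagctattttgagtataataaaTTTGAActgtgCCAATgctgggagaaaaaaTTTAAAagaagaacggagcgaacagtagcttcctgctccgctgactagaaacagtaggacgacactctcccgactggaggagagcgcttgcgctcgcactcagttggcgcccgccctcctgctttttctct
CDC20: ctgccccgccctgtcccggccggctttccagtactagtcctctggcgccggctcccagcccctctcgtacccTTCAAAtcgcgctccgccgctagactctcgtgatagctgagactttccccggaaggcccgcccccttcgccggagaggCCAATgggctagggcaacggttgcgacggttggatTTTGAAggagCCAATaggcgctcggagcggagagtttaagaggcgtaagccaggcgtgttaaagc
PLK1: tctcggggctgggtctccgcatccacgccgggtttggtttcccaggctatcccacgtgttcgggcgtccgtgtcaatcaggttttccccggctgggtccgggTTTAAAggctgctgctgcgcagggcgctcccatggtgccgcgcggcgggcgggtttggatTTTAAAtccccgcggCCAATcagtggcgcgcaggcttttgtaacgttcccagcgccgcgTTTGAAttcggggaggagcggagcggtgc
CCNB2: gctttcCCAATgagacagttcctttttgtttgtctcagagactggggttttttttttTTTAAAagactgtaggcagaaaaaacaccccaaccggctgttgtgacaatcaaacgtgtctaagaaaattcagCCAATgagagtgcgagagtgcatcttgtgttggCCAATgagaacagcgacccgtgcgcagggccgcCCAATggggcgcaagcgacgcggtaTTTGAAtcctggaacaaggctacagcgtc
In CCNB1 the variant CHR begins 30 bases before the start, below CCAAT boxes at 87 and 55 bases. PLK1 and CCNB2 each hold TTTGAA 29 bases before the start, with the nearest CCAAT box at 73 bases in PLK1 and at 54 bases in CCNB2. CDC20 holds its nearer TTTGAA 65 bases before the start, between CCAAT boxes at 100 and 55 bases. CDK1 holds its TTTGAA much farther out, at 161 bases.

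Over the whole 300-base windows, counting both strands, TTTGAA was found in 27 of the 41 member promoters (65.9%) and in 15.4% of all 27305 promoters. TTTGAA or TTTAAA was found in 33 members (80.5%) against 24.3% of all promoters, and CCAAT in 29 members (70.7%) against 35.7%. A TTTGAA that begins within the last 40 bases before the start was held by 16 members (39%) and by 2.10% of all promoters. A CCAAT box that begins 41 to 120 bases before the start was held by 24 members (58.5%) against 17.7%. The core of the HIF site, ACGTG or GCGTG, was found in 25 members (61.0%) and in 48.4% of all promoters, so these letters are common everywhere. A match is a stretch of letters and not a bound site.

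**Figure D1:**
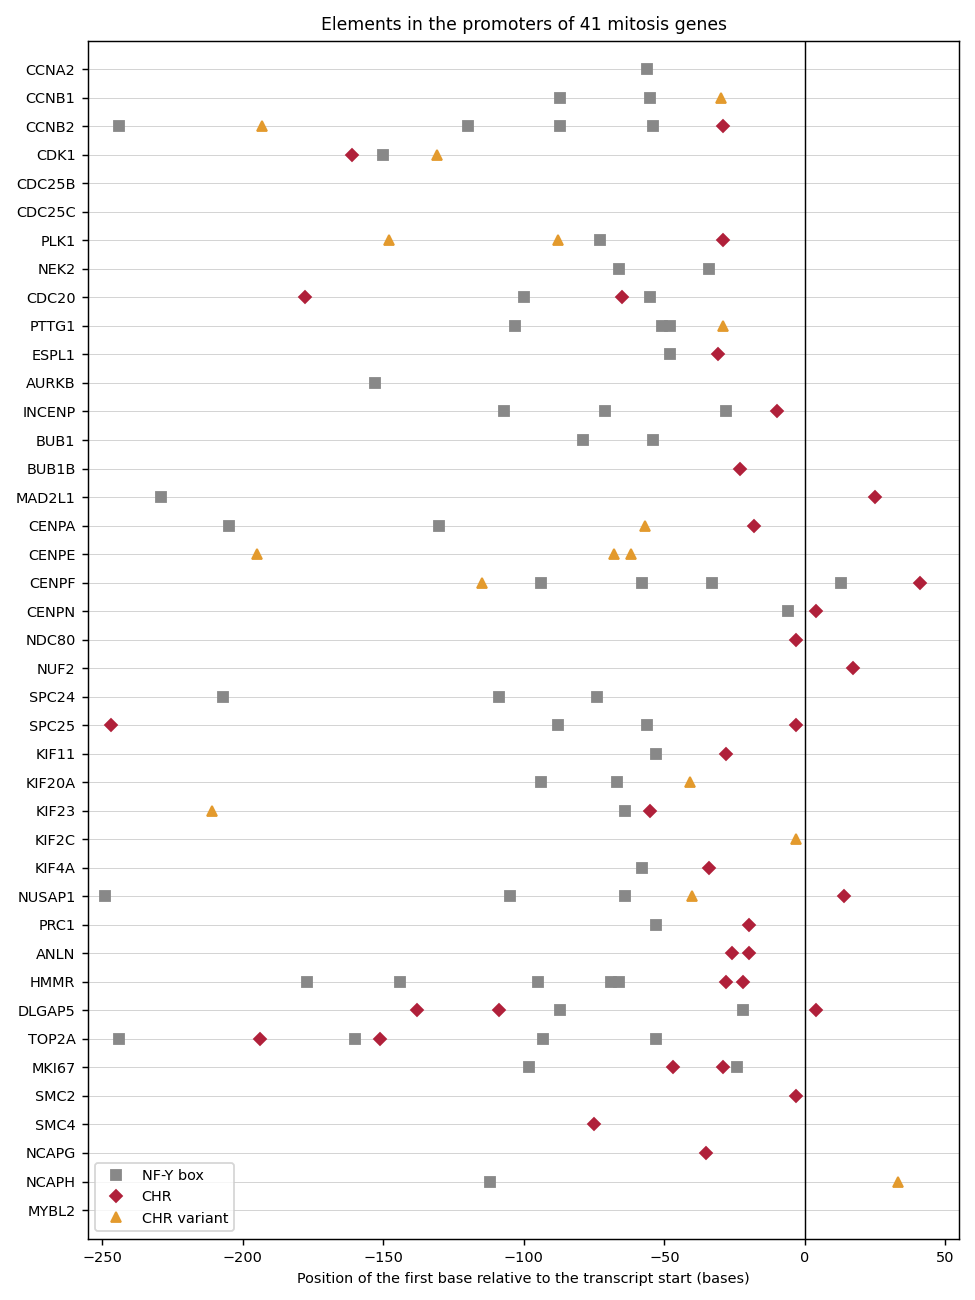
Position of the CHR (TTTGAA), its variant (TTTAAA) and the CCAAT box bound by NF-Y in the promoters of 41 members, grouped by role, with the transcript start at 0 and positions in bases. Red diamonds crowd just before the start, where 16 members hold one within 40 bases, and grey squares lie farther out.

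In HKC-8 cells part of the set was lower in hypoxia. Of the 48 members 13 fell (27.1%), where 9.12% of all genes tested were called lower, and 0 rose, where 11.2% of all genes were called higher. At an unadjusted p under 0.05, 21 members were lower and 1 higher in edgeR, and DESeq2 called 1 member higher. The median of the members was -0.18, against 0.0036 over all genes. Same-numbered HKC-8 samples deviated together, number 1 only weakly, which is a hint of pairing from the data and not from the design. With the replicate number as a block in the fit 26 members fell and 1 rose, beside 21.6% and 21% of all genes. All 13 members called without the block were among the 26. The others were CCNB2, PLK1, AURKB, BUB1, CENPA, CENPE, NDC80, NUF2, KIF11, KIF2C, TPX2, PRC1 and SMC4, and the member that rose was MKI67. Without normoxic replicate 1, and likewise without hypoxic replicate 1, the count of lower members was 4. The 9.12% of all genes belongs to the fit with all samples and does not apply to this count.

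In RCC4 cells members were called in both directions. Here 20 rose (41.7%, background 25.9%) and 11 fell (22.9%, background 24.2%), with a median of 0.040 against -0.0018 over all genes. This median was 0.024 without normoxic replicate 3, 0.067 without normoxic replicate 2, 0.063 without hypoxic replicate 3 and 0.066 with a GC and length correction. The share that fell was near that of all genes. In 1 fit of all 18 samples, where the lines share their spread, 13 rose and 5 fell. The 25.9% and 24.2% of all genes belong to the fit within the line and do not apply to these counts. In HepG2 cells 19 members fell (39.6%, background 19.2%) and 2 rose (4.17%, background 19.9%), with a median of -0.12 against -0.0044. The count of 2 was 1 to 5 when a sample was left out in turn, with 5 without normoxic replicate 3 and 1 without normoxic replicate 1 or 2 or hypoxic replicate 2 or 3. The 19.9% belongs to the fit with all samples.

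Changes were small throughout. No member changed by as much as 1 on the log2 scale in any line, and the members together took 1.03 to 1.14% of all counts in normoxic and 0.949 to 1.07% in hypoxic HKC-8 cells. For RCC4 this share was 0.483 to 0.511% in normoxia and 0.494 to 0.510% in hypoxia. In HepG2 cells it was 0.467 to 0.480% in normoxia and 0.408 to 0.418% in hypoxia, so that the 2 conditions did not overlap there.

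**Figure D2:**
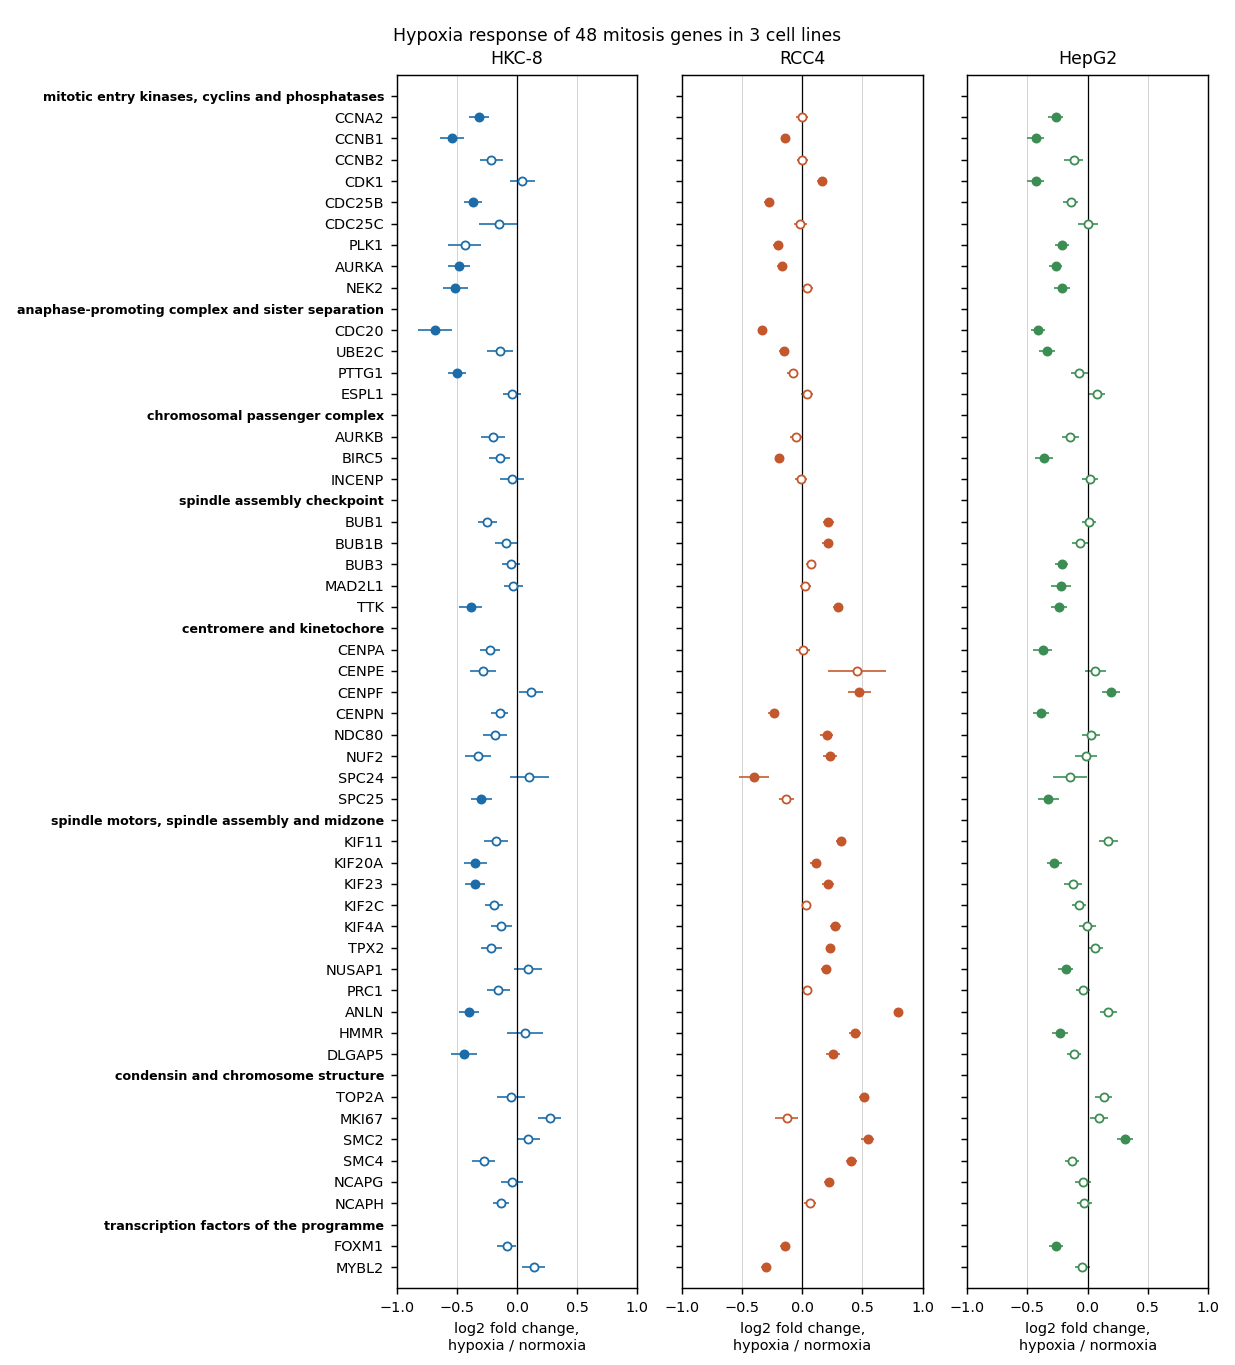
Log2 fold change (hypoxia over normoxia) of the 48 members in HKC-8, RCC4 and HepG2 cells, grouped by role, with bars of 1 SE and filled points for members called at an adjusted p under 0.05. Filled points lie left of 0 in HKC-8 cells (13 lower), on both sides in RCC4 cells (20 higher, 11 lower) and mostly left of 0 in HepG2 cells (19 lower, 2 higher).

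Among the 9 mitotic entry kinases, cyclins and phosphatases, 5 fell in HKC-8 cells, 4 in RCC4 cells and 6 in HepG2 cells, and 1 rose, CDK1 in RCC4 cells. With the block 7 fell in HKC-8 cells. The shares of lower members, 55.6%, 44.4% and 66.7%, stand beside 9.12%, 24.2% and 19.2% of all genes in the same order of lines. Counts with the block stand beside 21.6% of all genes called lower, for this and the other roles. CCNB1 (chr5:68462962-68474072, GRCh37) encodes cyclin B1, the activating partner of CDK1. In HKC-8 cells, CCNB1 was at 388, 380.5 and 371 CPM in normoxia and at 224, 279.6 and 277 CPM in hypoxia. In RCC4 cells, CCNB1 was at 301, 305 and 301 CPM in normoxia and at 265, 277 and 275 CPM in hypoxia. In HepG2 cells, CCNB1 was at 232, 258 and 219.8 CPM in normoxia and at 175, 181 and 171 CPM in hypoxia. In each line every hypoxic sample lay below every normoxic one, and CCNB1 fell by 0.54 ± 0.098 (adjusted p = 0.00678) in HKC-8, by 0.14 ± 0.033 (adjusted p = 0.000852) in RCC4 and by 0.43 ± 0.069 (adjusted p = 0.000294) in HepG2 cells. AURKA, the Aurora kinase of the spindle poles, was lower in all 3 lines as well. In HKC-8 cells, AURKA was at 351, 323 and 316 CPM in normoxia and at 210.3, 250.4 and 244 CPM in hypoxia. In RCC4 cells, AURKA was at 126, 124 and 124 CPM in normoxia and at 111, 111 and 109 CPM in hypoxia. In HepG2 cells, AURKA was at 202, 204 and 198 CPM in normoxia and at 167, 161 and 175 CPM in hypoxia. Again no hypoxic sample reached a normoxic one of its line. AURKA fell by 0.49 ± 0.091 (adjusted p = 0.00755) in HKC-8 and fell by 0.17 ± 0.036 (adjusted p = 0.000387) in RCC4 cells, and fell by 0.27 ± 0.057 (adjusted p = 0.0026) in HepG2 cells.

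CDK1 fell with its cyclin in HepG2 cells and not in the other lines. In HKC-8 cells, CDK1 was at 175, 141 and 167 CPM in normoxia and at 168, 149 and 179 CPM in hypoxia. In RCC4 cells, CDK1 was at 114, 115 and 113 CPM in normoxia and at 125, 132 and 124 CPM in hypoxia. In HepG2 cells, CDK1 was at 112, 131 and 115 CPM in normoxia and at 89.2, 92.5 and 83.8 CPM in hypoxia. The HKC-8 samples overlapped, the hypoxic RCC4 samples lay above the normoxic ones and the hypoxic HepG2 samples below them. CDK1 rose by 0.16 ± 0.038 (adjusted p = 0.00102) in RCC4 and fell by 0.43 ± 0.073 (adjusted p = 0.00043) in HepG2 cells, and had a log2 fold change of 0.042 ± 0.10 (adjusted p = 0.805) in HKC-8 cells. PLK1, the Polo-like kinase that drives centrosome maturation and cohesin removal, had a lower mean in hypoxia in every line. In HKC-8 cells, PLK1 was at 246, 254 and 198 CPM in normoxia and at 141, 198 and 175 CPM in hypoxia. In RCC4 cells, PLK1 was at 202, 213 and 189.6 CPM in normoxia and at 179, 178 and 167 CPM in hypoxia. In HepG2 cells, PLK1 was at 245, 249 and 246 CPM in normoxia and at 214, 200.4 and 224 CPM in hypoxia. In HKC-8 cells the lowest normoxic and the highest hypoxic sample were both at 198 CPM, and in the other lines the groups lay apart. PLK1 had a log2 fold change of -0.44 ± 0.14 (adjusted p = 0.0526) in HKC-8 cells, -0.44 ± 0.098 (adjusted p = 0.00495) with the replicate block, and it fell by 0.20 ± 0.041 (adjusted p = 0.000267) in RCC4 and fell by 0.22 ± 0.06 (adjusted p = 0.0115) in HepG2 cells.

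The centrosome kinase NEK2 was among the 5 members with the largest changes in HKC-8 cells. In HKC-8 cells, NEK2 was at 56.3, 50.9 and 58.7 CPM in normoxia and at 35.7, 36.3 and 43.8 CPM in hypoxia. The highest hypoxic sample stayed below the lowest normoxic one, and NEK2 fell by 0.51 ± 0.10 (adjusted p = 0.0104). It fell by 0.21 ± 0.067 (adjusted p = 0.0234) in HepG2 cells and had a log2 fold change of 0.041 ± 0.044 (adjusted p = 0.454) in RCC4 cells. CCNA2, the cyclin of S phase and mitotic entry, fell by 0.32 ± 0.081 (adjusted p = 0.0264) in HKC-8 and fell by 0.27 ± 0.06 (adjusted p = 0.00341) in HepG2 cells. CDC25B, a phosphatase that activates CDK1, fell by 0.36 ± 0.077 (adjusted p = 0.0122) in HKC-8 and fell by 0.28 ± 0.038 (adjusted p = 1.72e-06) in RCC4 cells. Its relative CDC25C and the second B-type cyclin, CCNB2, were called in no line without the block. With the replicate block CCNB2 had a log2 fold change of -0.21 ± 0.058 (adjusted p = 0.0134) in HKC-8 cells.

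Of the 4 genes of the anaphase-promoting complex and sister separation, 2 fell in each line (50%, beside 9.12% of all genes in HKC-8 cells, 24.2% in RCC4 cells and 19.2% in HepG2 cells). Among them CDC20 showed the largest decrease of any member in HKC-8 cells and the largest but for SPC24 in RCC4 cells. CDC20 (chr1:43824652-43828874, GRCh37) encodes the activator of the complex at anaphase. In HKC-8 cells, CDC20 was at 315, 370.4 and 293 CPM in normoxia and at 164, 237 and 207 CPM in hypoxia. In RCC4 cells, CDC20 was at 239, 253 and 228 CPM in normoxia and at 189.8, 195 and 185 CPM in hypoxia. In HepG2 cells, CDC20 was at 121, 121 and 115 CPM in normoxia and at 89.4, 88.4 and 90.8 CPM in hypoxia. The groups did not overlap in any line. CDC20 fell by 0.68 ± 0.14 (adjusted p = 0.0111) in HKC-8, fell by 0.33 ± 0.038 (adjusted p = 1.54e-07) in RCC4 and fell by 0.41 ± 0.056 (adjusted p = 8.17e-05) in HepG2 cells. Securin, PTTG1, which holds separase inactive until anaphase, changed in HKC-8 cells alone among the calls. In HKC-8 cells, PTTG1 was at 83.3, 77.3 and 84.3 CPM in normoxia and at 54.3, 58.1 and 60.3 CPM in hypoxia. In RCC4 cells, PTTG1 was at 90.8, 99.7 and 97.1 CPM in normoxia and at 89.98, 92.8 and 87.9 CPM in hypoxia. In HepG2 cells, PTTG1 was at 58.5, 67.1 and 57.9 CPM in normoxia and at 58.7, 57.8 and 58.5 CPM in hypoxia. The HKC-8 groups lay apart, and those of the other lines overlapped. PTTG1 fell by 0.50 ± 0.077 (adjusted p = 0.00342) in HKC-8 cells, and its values were -0.081 ± 0.043 (adjusted p = 0.12) in RCC4 and -0.069 ± 0.071 (adjusted p = 0.478) in HepG2 cells. PTTG1 has close copies elsewhere in the genome, and reads that did not map uniquely were removed, so its level is uncertain. UBE2C, the ubiquitin-conjugating enzyme of the complex, fell by 0.15 ± 0.037 (adjusted p = 0.00145) in RCC4 and fell by 0.34 ± 0.068 (adjusted p = 0.00176) in HepG2 cells. Separase itself, ESPL1, was called in no line, at -0.041 ± 0.076 in HKC-8, 0.081 ± 0.065 in HepG2 and 0.038 ± 0.051 in RCC4 cells.

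In the chromosomal passenger complex, which corrects faulty attachments and later guides cytokinesis, 1 of the 3 genes fell in RCC4 and HepG2 cells (33.3%, beside 24.2% and 19.2% of all genes), and the kinase AURKB was called in no line with all samples and no block. In HKC-8 cells, AURKB was at 83, 90.9 and 87.5 CPM in normoxia and at 67.8, 86.4 and 72.7 CPM in hypoxia. In RCC4 cells, AURKB was at 58.3, 61.2 and 64.6 CPM in normoxia and at 60.7, 60.9 and 54.8 CPM in hypoxia. In HepG2 cells, AURKB was at 48.7, 49.5 and 43.7 CPM in normoxia and at 43.1, 41.5 and 44 CPM in hypoxia. The groups overlapped in every line, and AURKB had a log2 fold change of -0.20 ± 0.099 (adjusted p = 0.18) in HKC-8 cells, -0.21 ± 0.061 (adjusted p = 0.02) with the replicate block. Its values were -0.055 ± 0.051 (adjusted p = 0.391) in RCC4 and -0.14 ± 0.07 (adjusted p = 0.123) in HepG2 cells. BIRC5, survivin, fell by 0.20 ± 0.035 (adjusted p = 5.21e-05) in RCC4 and fell by 0.36 ± 0.076 (adjusted p = 0.00217) in HepG2 cells, and had a log2 fold change of -0.14 ± 0.085 (adjusted p = 0.258) in HKC-8 cells. The scaffold INCENP was at -0.04 ± 0.10 in HKC-8, 0.019 ± 0.067 in HepG2 and -0.011 ± 0.053 in RCC4 cells, called in none of them.

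The 5 spindle assembly checkpoint genes split by line, with 1 lower in HKC-8 (2 with the block), 3 higher in RCC4 and 3 lower in HepG2 cells. The last 2 counts are 60% of the group, beside 25.9% and 19.2% of all genes, and the first is 20% beside 9.12%. The kinase TTK, which recruits the other checkpoint proteins to kinetochores, carried calls in all 3. In HKC-8 cells, TTK was at 165, 142 and 159.6 CPM in normoxia and at 119, 108 and 129 CPM in hypoxia. In RCC4 cells, TTK was at 56.3, 54.7 and 55.3 CPM in normoxia and at 66.6, 68.4 and 68.2 CPM in hypoxia. In HepG2 cells, TTK was at 40.05, 41.7 and 39.5 CPM in normoxia and at 34.3, 35.7 and 32.7 CPM in hypoxia. Hypoxic samples lay wholly below the normoxic ones in HKC-8 and HepG2 cells and wholly above them in RCC4 cells. TTK fell by 0.39 ± 0.094 (adjusted p = 0.0213) in HKC-8 and fell by 0.24 ± 0.068 (adjusted p = 0.0131) in HepG2 cells, and rose by 0.30 ± 0.042 (adjusted p = 4.07e-06) in RCC4 cells. The checkpoint kinase BUB1 is a core member. In HKC-8 cells, BUB1 was at 219, 193 and 213 CPM in normoxia and at 165, 174 and 186 CPM in hypoxia. In RCC4 cells, BUB1 was at 72.5, 73.9 and 69.5 CPM in normoxia and at 84.7, 87.7 and 77.5 CPM in hypoxia. In HepG2 cells, BUB1 was at 112, 105 and 110.3 CPM in normoxia and at 111, 105 and 114 CPM in hypoxia. Only the HepG2 samples overlapped. BUB1 rose by 0.22 ± 0.046 (adjusted p = 0.000457) in RCC4 cells and had a log2 fold change of -0.25 ± 0.083 (adjusted p = 0.0644) in HKC-8 cells, -0.25 ± 0.063 (adjusted p = 0.0104) with the replicate block, and had a log2 fold change of 0.0088 ± 0.058 (adjusted p = 0.922) in HepG2 cells. BUB1B, the inhibitor of CDC20, rose by 0.21 ± 0.048 (adjusted p = 0.000822) in RCC4 cells. BUB3 and MAD2L1 fell in HepG2 cells, by 0.22 ± 0.055 (adjusted p = 0.00762) and 0.22 ± 0.082 (adjusted p = 0.0487).

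Of the 8 centromere and kinetochore genes, 1 fell in HKC-8 cells (5 with the block), 3 rose and 2 fell in RCC4 cells, and 1 rose and 3 fell in HepG2 cells. The lower shares of 12.5% in HKC-8 and 25% in RCC4 cells were near the 9.12% and 24.2% of all genes, and the higher share of 37.5% in RCC4 cells stands beside 25.9%. In HepG2 cells 37.5% fell, beside 19.2% of all genes, and 12.5% rose, beside 19.9%. CENPA is the histone variant that marks the centromere. In HKC-8 cells, CENPA was at 38, 34.9 and 37.1 CPM in normoxia and at 31.7, 30.2 and 31.8 CPM in hypoxia. In RCC4 cells, CENPA was at 22.8, 24.3 and 23.1 CPM in normoxia and at 24.7, 22.3 and 23.1 CPM in hypoxia. In HepG2 cells, CENPA was at 29.4, 31.2 and 27.9 CPM in normoxia and at 23.8, 22.1 and 22.4 CPM in hypoxia. Hypoxic samples were all lower in HKC-8 and HepG2 cells and mixed with normoxic ones in RCC4 cells. CENPA fell by 0.37 ± 0.077 (adjusted p = 0.00183) in HepG2 cells, and its values were -0.23 ± 0.081 (adjusted p = 0.0778) in HKC-8 and 0.0055 ± 0.061 (adjusted p = 0.95) in RCC4 cells. With the replicate block it was -0.23 ± 0.061 (adjusted p = 0.0134) in HKC-8 cells. CENPN, which binds the CENPA nucleosome, was among the 5 leading members in HepG2 cells. In HepG2 cells, CENPN was at 77.9, 84.3 and 73.7 CPM in normoxia and at 59, 60.8 and 60.5 CPM in hypoxia. CENPN fell by 0.39 ± 0.067 (adjusted p = 0.000501) there and fell by 0.24 ± 0.046 (adjusted p = 0.000168) in RCC4 cells.

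Among the other kinetochore genes CENPF, NDC80 and NUF2 rose in RCC4 cells. CENPF, a large coiled-coil protein of kinetochores and the nuclear matrix, was called higher in RCC4 and HepG2 cells. In RCC4 cells, CENPF was at 27.9, 30.02 and 28.5 CPM in normoxia and at 50.1, 32.8 and 37 CPM in hypoxia. In HepG2 cells, CENPF was at 91, 95.4 and 105 CPM in normoxia and at 104, 121 and 109 CPM in hypoxia. In RCC4 cells hypoxic replicate 1 stood far above replicates 2 and 3. CENPF rose by 0.48 ± 0.094 (adjusted p = 0.000212) in RCC4 cells, 0.28 (adjusted p = 0.000599) without that replicate, and rose by 0.19 ± 0.072 (adjusted p = 0.0488) in HepG2 cells. The HepG2 groups overlapped, and the call there was lost without normoxic replicate 1 (0.14, adjusted p = 0.196), normoxic replicate 2 (0.19, adjusted p = 0.0792), hypoxic replicate 2 (0.13, adjusted p = 0.245) or hypoxic replicate 3 (0.21, adjusted p = 0.0862), and in 1 fit of all 18 samples (0.19, adjusted p = 0.226). NDC80 and NUF2, which form the microtubule-binding end of the NDC80 complex, rose by 0.20 ± 0.054 (adjusted p = 0.00307) and 0.23 ± 0.057 (adjusted p = 0.00179) in RCC4 cells. In HKC-8 cells they were called only with the replicate block, as lower, at -0.18 ± 0.056 (adjusted p = 0.0237) and -0.32 ± 0.059 (adjusted p = 0.00173). Of the other members of the same complex, SPC24 fell by 0.40 ± 0.12 (adjusted p = 0.00967) in RCC4 cells and SPC25 had a log2 fold change of -0.13 ± 0.061 (adjusted p = 0.0729). SPC25 fell by 0.30 ± 0.089 (adjusted p = 0.0446) in HKC-8 and fell by 0.33 ± 0.084 (adjusted p = 0.00767) in HepG2 cells. SPC24 was the lowest member in HKC-8 and HepG2 cells, and CENPE, described with the normoxic levels, the lowest in RCC4 cells. CENPE was called lower in HKC-8 cells with the replicate block only, at -0.28 ± 0.084 (adjusted p = 0.0207).

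Spindle motors, spindle assembly and midzone genes were split by line, with 4 of 11 lower in HKC-8 (8 with the block), 9 of 11 higher in RCC4 and 3 of 11 lower in HepG2 cells. The RCC4 share of 81.8% stands beside 25.9% of all genes, the HKC-8 share of 36.4% beside 9.12% and the HepG2 share of 27.3% beside 19.2%. ANLN (chr7:36429430-36493400, GRCh37) encodes anillin, the scaffold of the cleavage furrow. In HKC-8 cells, ANLN was at 402, 404 and 358 CPM in normoxia and at 279, 308 and 293 CPM in hypoxia. In RCC4 cells, ANLN was at 299, 286 and 268 CPM in normoxia and at 489, 502 and 485 CPM in hypoxia. In HepG2 cells, ANLN was at 105, 111 and 121 CPM in normoxia and at 117, 131 and 133 CPM in hypoxia. Hypoxic samples lay far above the normoxic ones in RCC4 cells, below them in HKC-8 cells and partly above them in HepG2 cells. ANLN rose by 0.80 ± 0.037 (adjusted p = 1.65e-14) in RCC4 cells, the largest change of any member in any line, fell by 0.40 ± 0.083 (adjusted p = 0.0114) in HKC-8 cells and had a log2 fold change of 0.17 ± 0.07 (adjusted p = 0.0681) in HepG2 cells. With the replicate block ANLN was called higher in HepG2 cells, at 0.17 ± 0.056 (adjusted p = 0.0216). The replicate numbers of HepG2 cells did not meet the rule for pairing given with the processing. KIF20A and KIF23 are the kinesins of the central spindle. In HKC-8 cells, KIF20A was at 209, 198 and 215 CPM in normoxia and at 142, 171 and 175 CPM in hypoxia. In RCC4 cells, KIF20A was at 111, 112 and 103 CPM in normoxia and at 116, 122 and 112 CPM in hypoxia. In HepG2 cells, KIF20A was at 76.5, 74.1 and 73.2 CPM in normoxia and at 58.6, 60.9 and 65.3 CPM in hypoxia. Only the RCC4 groups overlapped, by the lowest hypoxic and the highest normoxic sample. KIF20A fell by 0.35 ± 0.095 (adjusted p = 0.0337) in HKC-8 and fell by 0.28 ± 0.062 (adjusted p = 0.00323) in HepG2 cells, and rose by 0.11 ± 0.042 (adjusted p = 0.0338) in RCC4 cells. The RCC4 call was lost without normoxic replicate 1, normoxic replicate 3 (0.068, adjusted p = 0.205) or hypoxic replicate 2 (0.078, adjusted p = 0.176). In HKC-8 cells, KIF23 was at 259, 251 and 238 CPM in normoxia and at 179.8, 194 and 212 CPM in hypoxia. In RCC4 cells, KIF23 was at 61.7, 58 and 53.2 CPM in normoxia and at 68.8, 64.8 and 65.7 CPM in hypoxia. The groups separated in both of these lines, in opposite directions. KIF23 fell by 0.35 ± 0.085 (adjusted p = 0.0215) in HKC-8 cells and rose by 0.21 ± 0.05 (adjusted p = 0.00118) in RCC4 cells.

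DLGAP5 stabilizes kinetochore fibres and is a target of Aurora A. In HKC-8 cells, DLGAP5 was at 183, 156 and 182 CPM in normoxia and at 120.1, 117 and 146 CPM in hypoxia. In RCC4 cells, DLGAP5 was at 35.3, 32.4 and 30.6 CPM in normoxia and at 36.2, 41.2 and 39.6 CPM in hypoxia. It was lower in every hypoxic HKC-8 sample and higher in every hypoxic RCC4 sample, and it fell by 0.44 ± 0.11 (adjusted p = 0.0215) in HKC-8 and rose by 0.26 ± 0.06 (adjusted p = 0.00102) in RCC4 cells. HMMR, a spindle-pole protein and hyaluronan receptor, and NUSAP1, which bundles microtubules at chromosomes, moved apart in RCC4 and HepG2 cells. In RCC4 cells, HMMR was at 73.2, 74.4 and 64.6 CPM in normoxia and at 93.2, 102 and 91.4 CPM in hypoxia. In HepG2 cells, HMMR was at 68.4, 74.8 and 70.8 CPM in normoxia and at 57.9, 61.8 and 62.9 CPM in hypoxia. HMMR rose by 0.44 ± 0.051 (adjusted p = 1.78e-07) in RCC4 and fell by 0.23 ± 0.065 (adjusted p = 0.0124) in HepG2 cells. In RCC4 cells, NUSAP1 was at 106, 97.6 and 101 CPM in normoxia and at 118, 116 and 113 CPM in hypoxia. In HepG2 cells, NUSAP1 was at 72, 76.9 and 70.3 CPM in normoxia and at 65, 66.2 and 62 CPM in hypoxia. Neither pair of groups overlapped, and NUSAP1 rose by 0.20 ± 0.04 (adjusted p = 0.000233) in RCC4 and fell by 0.18 ± 0.063 (adjusted p = 0.0352) in HepG2 cells. KIF11, the motor that pushes spindle poles apart, rose by 0.33 ± 0.041 (adjusted p = 7.25e-07) in RCC4 cells, as did the chromokinesin KIF4A, by 0.27 ± 0.046 (adjusted p = 3.21e-05), and the spindle assembly factor TPX2, by 0.23 ± 0.037 (adjusted p = 1.4e-05). KIF11 and TPX2 were called lower in HKC-8 cells with the block only, at -0.18 ± 0.055 (adjusted p = 0.024) and -0.22 ± 0.062 (adjusted p = 0.0166). The microtubule depolymerase KIF2C and the midzone bundler PRC1 were called in no line without the block, and with it they were at -0.19 ± 0.057 (adjusted p = 0.0195) and -0.16 ± 0.06 (adjusted p = 0.049) in HKC-8 cells.

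Among the 6 genes of condensin and chromosome structure, 4 rose in RCC4 and 1 in HepG2 cells, and no call was made in HKC-8 cells without the block. The RCC4 share of 66.7% stands beside 25.9% of all genes, and the HepG2 share of 16.7% was near the 19.9% of all genes. TOP2A is the topoisomerase that untangles sister chromatids. In HKC-8 cells, TOP2A was at 697, 606 and 715 CPM in normoxia and at 635, 568 and 741 CPM in hypoxia. In RCC4 cells, TOP2A was at 244, 235 and 216 CPM in normoxia and at 331, 329.7 and 325 CPM in hypoxia. In HepG2 cells, TOP2A was at 505, 455 and 551 CPM in normoxia and at 553, 555 and 548 CPM in hypoxia. The groups lay far apart in RCC4 cells and overlapped in the other lines. TOP2A rose by 0.51 ± 0.038 (adjusted p = 1.23e-10) in RCC4 cells, had a log2 fold change of -0.05 ± 0.11 (adjusted p = 0.788) in HKC-8 cells and had a log2 fold change of 0.13 ± 0.068 (adjusted p = 0.144) in HepG2 cells. The condensin ATPase SMC2 was called higher in RCC4 and HepG2 cells. In RCC4 cells, SMC2 was at 51.8, 48.9 and 43.2 CPM in normoxia and at 69.2, 71.3 and 68.4 CPM in hypoxia. In HepG2 cells, SMC2 was at 59.9, 55.4 and 62.8 CPM in normoxia and at 72, 76.5 and 72.2 CPM in hypoxia. The groups lay apart in both lines, and SMC2 rose by 0.54 ± 0.053 (adjusted p = 1.23e-08) in RCC4 and rose by 0.31 ± 0.063 (adjusted p = 0.00175) in HepG2 cells. Its partner SMC4 rose by 0.41 ± 0.047 (adjusted p = 1.41e-07) in RCC4 cells and the condensin I subunit NCAPG rose by 0.22 ± 0.043 (adjusted p = 0.00015), while the subunit NCAPH had a log2 fold change of 0.066 ± 0.048 (adjusted p = 0.267). SMC4 was called lower in HKC-8 cells with the replicate block only, at -0.28 ± 0.060 (adjusted p = 0.00398).

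MKI67 encodes Ki-67, the coat protein of mitotic chromosomes used to stain dividing cells. In HKC-8 cells, MKI67 was at 439.9, 488 and 402 CPM in normoxia and at 496, 548 and 556 CPM in hypoxia. In RCC4 cells, MKI67 was at 41.6, 44.1 and 43.7 CPM in normoxia and at 50.3, 33.6 and 34.1 CPM in hypoxia. In HepG2 cells, MKI67 was at 132, 137 and 155 CPM in normoxia and at 137, 159 and 156 CPM in hypoxia. In HKC-8 cells the hypoxic samples were above the normoxic ones, against the direction of the called members of that line. MKI67 had a log2 fold change of 0.27 ± 0.095 (adjusted p = 0.0735) in HKC-8 cells, 0.27 ± 0.069 (adjusted p = 0.00942) with the replicate block, where it was the 1 member called higher. Its values were -0.13 ± 0.095 (adjusted p = 0.274) in RCC4 and 0.092 ± 0.075 (adjusted p = 0.363) in HepG2 cells. Without hypoxic replicate 1, in which it was highest, MKI67 was at -0.34 in RCC4 cells, with an adjusted p of 1.09e-05.

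Both transcription factors of the programme fell in RCC4 cells, where 24.2% of all genes were called lower, and FOXM1 alone fell in HepG2 cells, where 19.2% were. FOXM1 (chr12:2966846-2986340, GRCh37) drives the late cell-cycle genes. In HKC-8 cells, FOXM1 was at 230.1, 249.6 and 263 CPM in normoxia and at 226, 237 and 235 CPM in hypoxia. In RCC4 cells, FOXM1 was at 301, 305 and 283 CPM in normoxia and at 276, 258 and 266 CPM in hypoxia. In HepG2 cells, FOXM1 was at 104, 95.3 and 99.2 CPM in normoxia and at 80.6, 81.1 and 86.8 CPM in hypoxia. Hypoxic samples were below normoxic ones in RCC4 and HepG2 cells, and in HKC-8 cells they overlapped. FOXM1 fell by 0.15 ± 0.036 (adjusted p = 0.00178) in RCC4 and fell by 0.26 ± 0.059 (adjusted p = 0.00333) in HepG2 cells, and had a log2 fold change of -0.085 ± 0.079 (adjusted p = 0.48) in HKC-8 cells. MYBL2 (chr20:42295659-42345135, GRCh37) encodes B-MYB, the activating subunit that joins the MuvB core when DREAM is released. In HKC-8 cells, MYBL2 was at 819, 926 and 812 CPM in normoxia and at 935, 1014 and 856 CPM in hypoxia. In RCC4 cells, MYBL2 was at 178, 189 and 162 CPM in normoxia and at 143, 147 and 139 CPM in hypoxia. In HepG2 cells, MYBL2 was at 141, 145 and 145 CPM in normoxia and at 133, 137 and 149.7 CPM in hypoxia. Only the RCC4 groups lay apart. MYBL2 fell by 0.30 ± 0.044 (adjusted p = 4.61e-06) in RCC4 cells, had a log2 fold change of 0.14 ± 0.095 (adjusted p = 0.338) in HKC-8 cells and had a log2 fold change of -0.042 ± 0.061 (adjusted p = 0.622) in HepG2 cells.

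**Figure D3:**
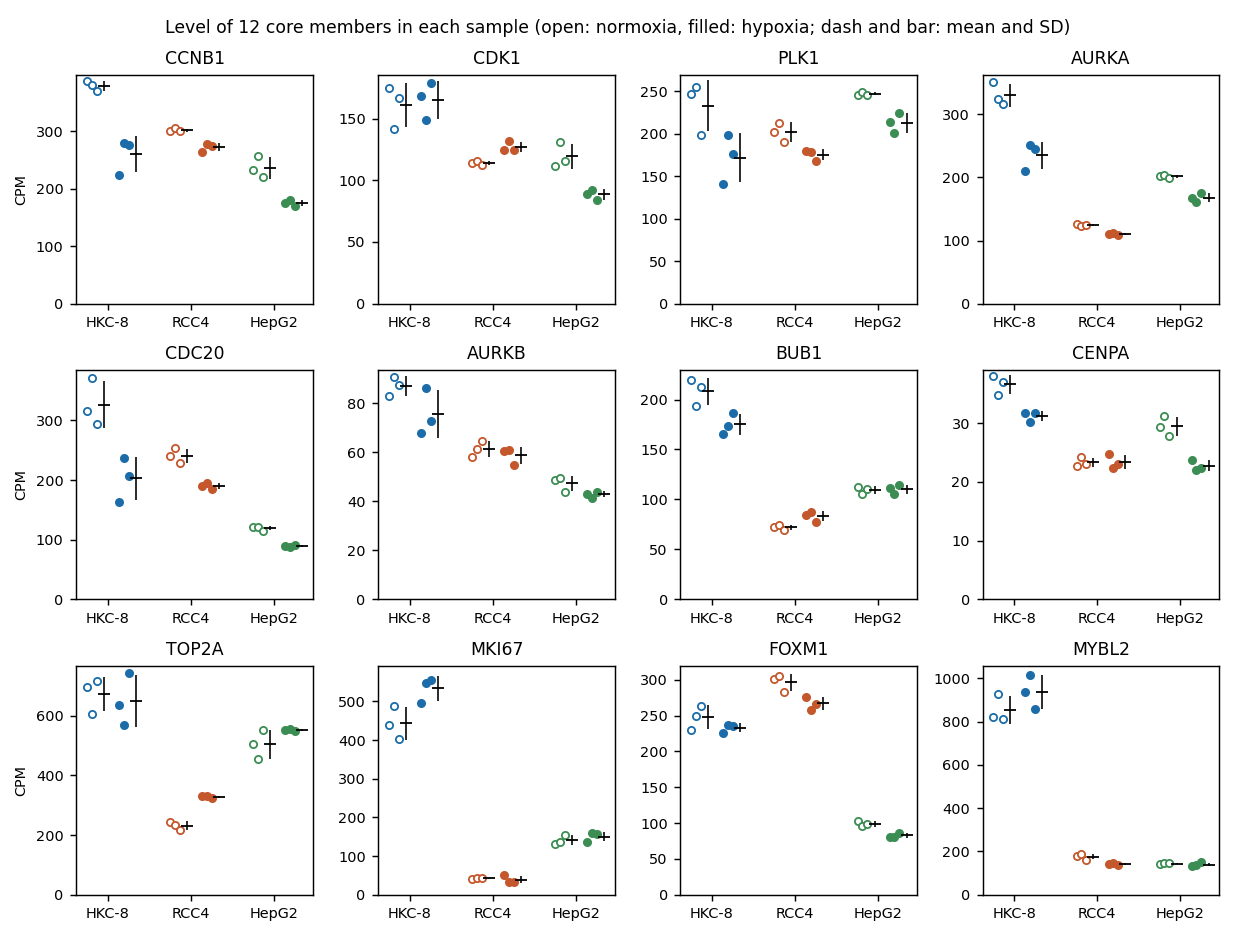
CPM of the 12 core members in each sample, with open points for normoxia and filled points for hypoxia and, beside them, the mean and SD of 3 samples. CCNB1, AURKA and CDC20 are lower in all hypoxic samples of every line, CDK1 is higher only in hypoxic RCC4 cells among the calls, and MYBL2 is above 800 CPM in HKC-8 cells and under 200 CPM elsewhere.

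Across the 3 lines, CCNB1, CDC20 and AURKA were called lower in all of them, 6.25% of the members beside 3.43% of the 11418 genes tested in all 3 lines, which are the background of the shares that follow. HKC-8 and HepG2 cells shared 8 lower members (16.7%, background 5.39%), 61.5% of the 13 in HKC-8 and 42.1% of the 19 in HepG2 cells. RCC4 cells shared 4 lower members with HKC-8 cells (8.33%, background 5.28%) and 8 with HepG2 cells (16.7%, background 10.4%). In all, 8 members (16.7%, background 5.97%) were called in opposite directions, TTK and KIF20A lower in HKC-8 and HepG2 but higher in RCC4 cells, KIF23, ANLN and DLGAP5 lower in HKC-8 and higher in RCC4 cells, and CDK1, NUSAP1 and HMMR lower in HepG2 and higher in RCC4 cells. Another 10 members were called higher in RCC4 cells and not called in the other lines (20.8%, background 11.8%), and 10 members were called in no line (20.8%, background 28.6%). With the replicate block in the HKC-8 fit, PLK1 joined the members lower in all 3 lines, now 8.33% beside 6.51% of these genes. RCC4 and HKC-8 cells then shared 5 lower members, 10.4% beside 11.2% of these genes, so that this share did not exceed the background. HKC-8 and HepG2 cells then shared 10 lower members, 20.8% beside 10.54%. With that block 14 members were called in opposite directions (29.2%, background 9.39%), with BUB1, NDC80, NUF2, KIF11, TPX2 and SMC4 in addition. Also with it, 4 members higher in RCC4 cells were not called elsewhere (8.33%, background 8.5%), and 4 members, CDC25C, INCENP, ESPL1 and NCAPH, were called in no line (8.33%, background 22%). The spread between replicates differed by line, with a common biological coefficient of variation of 0.135 in HKC-8, 0.0733 in HepG2 and 0.0437 in RCC4 cells, so that small changes were easiest to call in RCC4 cells.

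Some members named with values in every sample lost or gained their call when 1 sample was left out, which also leaves the fit with fewer samples. In HKC-8 cells NEK2, TTK, KIF20A, KIF23, ANLN and DLGAP5 were not called without normoxic replicate 1 or without hypoxic replicate 1, with fold changes of -0.50 to -0.26 and adjusted p-values of 0.0509 to 0.116. KIF20A was also not called there without normoxic replicate 2 or 3, nor KIF23 without normoxic replicate 2. In HepG2 cells NUSAP1 lost its call without any sample but normoxic replicate 3 (-0.20 to -0.13, adjusted p of 0.0632 to 0.128), PLK1 without hypoxic replicate 2 (0.0783), TTK without hypoxic replicate 3 (0.059) and HMMR without hypoxic replicate 1 (0.0767). Some calls were gained. In HepG2 cells TOP2A was called higher (0.20, adjusted p = 0.0128), ANLN higher (0.22, adjusted p = 0.0136) and AURKB lower (-0.20, adjusted p = 0.0195) without normoxic replicate 3, and ANLN also without hypoxic replicate 1 (0.23, adjusted p = 0.0404). In HKC-8 cells PLK1 was called lower without normoxic replicate 3 (-0.54, adjusted p = 0.0184) or hypoxic replicate 2 (-0.55, adjusted p = 0.022), and AURKB without hypoxic replicate 2 (-0.31, adjusted p = 0.0325). In each of these fits the direction was the same as with all samples.

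The difference in response between lines was tested as an interaction. Between HepG2 and HKC-8 cells, whose hypoxia is labelled alike but for the 0.1% in the HKC-8 titles, 2 members had a higher response in HepG2 cells (background 5.02%) and 1 a lower one (background 4.28%). The higher ones were ANLN at 0.58 ± 0.11 (adjusted p = 0.00444) and PTTG1 at 0.43 ± 0.11 (adjusted p = 0.0171), and the lower one was CDK1 at -0.47 ± 0.13 (adjusted p = 0.0394). With the replicate block these counts were 7 and 3, beside 11% and 9.06% of all genes. When a sample was left out in turn the counts were 1 to 5 and 0 to 1, with 5 higher without hypoxic HKC-8 replicate 3 and 1 higher without hypoxic HKC-8 replicate 1, normoxic HepG2 replicate 1 or any hypoxic HepG2 replicate. ANLN was called each time, PTTG1 in all but those last 5 cases, where its adjusted p was 0.0512 to 0.0612, and CDK1 was not called without normoxic HKC-8 replicate 2, hypoxic HKC-8 replicate 1 or 3, normoxic HepG2 replicate 2 or any hypoxic HepG2 replicate.

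The response of RCC4 cells was compared with that of each other line. Both comparisons use the same 6 RCC4 samples, so calls they have in common are not separate evidence. Against HKC-8 cells 17 members had a higher response (35.4%, background 7.87%) and 1 a lower one (background 7.29%), and with the replicate block 26 and 2, beside 15.3% and 13.3% of all genes. Against HepG2 cells 18 had a higher response (37.5%, background 10.9%) and 1 a lower one (background 11.7%), and in 1 fit of all 18 samples 9 and 0. These background shares do not apply to the fit of all 18 samples. TTK responded higher in RCC4 cells by 0.66 ± 0.11 (adjusted p = 0.0013) than in HKC-8 cells and by 0.53 ± 0.075 (adjusted p = 4.48e-05) than in HepG2 cells. For SMC4 these differences were 0.67 ± 0.12 (adjusted p = 0.00218) and 0.53 ± 0.082 (adjusted p = 0.000117), and for CCNB1 0.38 ± 0.10 (adjusted p = 0.0226) and 0.28 ± 0.078 (adjusted p = 0.0139). CCNB1 lost its call against HKC-8 cells in 5 of the 12 fits that each left out 1 sample (adjusted p of 0.0503 to 0.0531). KIF4A lost its call against HepG2 cells in 5 of the 12 (0.0502 to 0.0877) and against HKC-8 cells in 1 (0.0558), NEK2 against HepG2 cells in 4 (0.0509 to 0.0696) and KIF23 against HepG2 cells in 2. CCNB1 fell in RCC4 cells too, by less than in the other lines. MYBL2 responded lower in RCC4 cells by 0.46 ± 0.10 (adjusted p = 0.00955) than in HKC-8 cells. The lower count was 0 or 2 when some samples were left out, 2 in both comparisons without hypoxic RCC4 replicate 1. It was 0 against HKC-8 cells without normoxic RCC4 replicate 2, and 0 against HepG2 cells without normoxic RCC4 replicate 1 or 2, hypoxic RCC4 replicate 3 or hypoxic HepG2 replicate 3, and with a GC correction. The labelled oxygen and duration of RCC4 cells differ from those of the other lines.

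In normoxia the members were most abundant in HKC-8 cells. Against HKC-8 cells, 40 members were lower (83.3%, background 41.4%) and 4 higher (8.33%, background 39.4%) in RCC4 cells, with a median of -1.01 against -0.014 over all genes. In HepG2 cells 45 were lower (93.8%, background 40.5%) and 0 higher (background 42.6%), with a median of -1.13, and at an unadjusted p under 0.05 0 were higher in edgeR. Between HepG2 and RCC4 cells, 19 members were higher (39.6%, background 45.3%) and 21 lower (43.8%, background 38.1%) in HepG2 cells, shares near those of all genes. HKC-8 cells were above both other lines for 39 members (81.2%), RCC4 cells above both for 4 (8.33%) and HepG2 cells for 0, beside 25.1%, 25.1% and 28% of all genes. RCC4 and HepG2 cells were not told apart for 8 members (16.7%, as for 16.7% of all genes). Without normoxic HepG2 replicate 3, 1 member was higher in HepG2 than in HKC-8 cells. The HKC-8 libraries were also the deepest, and the part of depth in these differences was not tested.

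The 4 members higher in RCC4 than in HKC-8 cells were BIRC5 at 0.83 ± 0.075 (adjusted p = 1.38e-07), CDC25C at 0.35 ± 0.11 (adjusted p = 0.01), FOXM1 at 0.27 ± 0.069 (adjusted p = 0.00254) and PTTG1 at 0.24 ± 0.075 (adjusted p = 0.00869). MYBL2, which FOXM1 works with, went the other way, at -2.26 ± 0.08 (adjusted p = 8.27e-12). Per kilobase of transcript, MYBL2 led the members in normoxic HKC-8 cells at 319 CPM per kb. In RCC4 cells UBE2C led at 164 CPM per kb, followed by CCNB1 at 149 CPM per kb, and in HepG2 cells CCNB1 led at 117 CPM per kb.

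The members with the longest transcripts differed most between RCC4 and HKC-8 cells. CENPE (chr4:104026506-104119602, GRCh37), the kinesin that carries chromosomes to the metaphase plate, was at 119, 96.9 and 97.8 CPM in normoxic HKC-8 cells and at 31.2, 29.97 and 36.7 CPM in normoxic HepG2 cells. In normoxic RCC4 cells it was at 1.22, 1.61 and 1.19 CPM, from 62, 81 and 51 reads. This is a difference of -6.26 ± 0.15 (adjusted p = 1.56e-13) between RCC4 and HKC-8 cells. CENPF was at -3.51 ± 0.074 (adjusted p = 6.18e-14) and MKI67 at -3.35 ± 0.091 (adjusted p = 6.74e-13) in the same comparison. These are the only 3 members over 8 kb, and their median of -3.51 stands beside a median of -0.40 over all 1149 genes of that length. Members under 2 kb had a median of -0.49, beside 0.23 over all genes of that length. Those of 2 to 4 kb and of 4 to 8 kb were close to each other, at -1.10 and -1.19. All genes of these lengths had medians of -0.026 and -0.22. The part of transcript length in the low level of these genes in RCC4 cells was not tested beyond a correction for GC content and length, under which 42 members were lower and 3 higher. The shares of all genes given for this comparison belong to the fit without that correction.

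**Figure D4:**
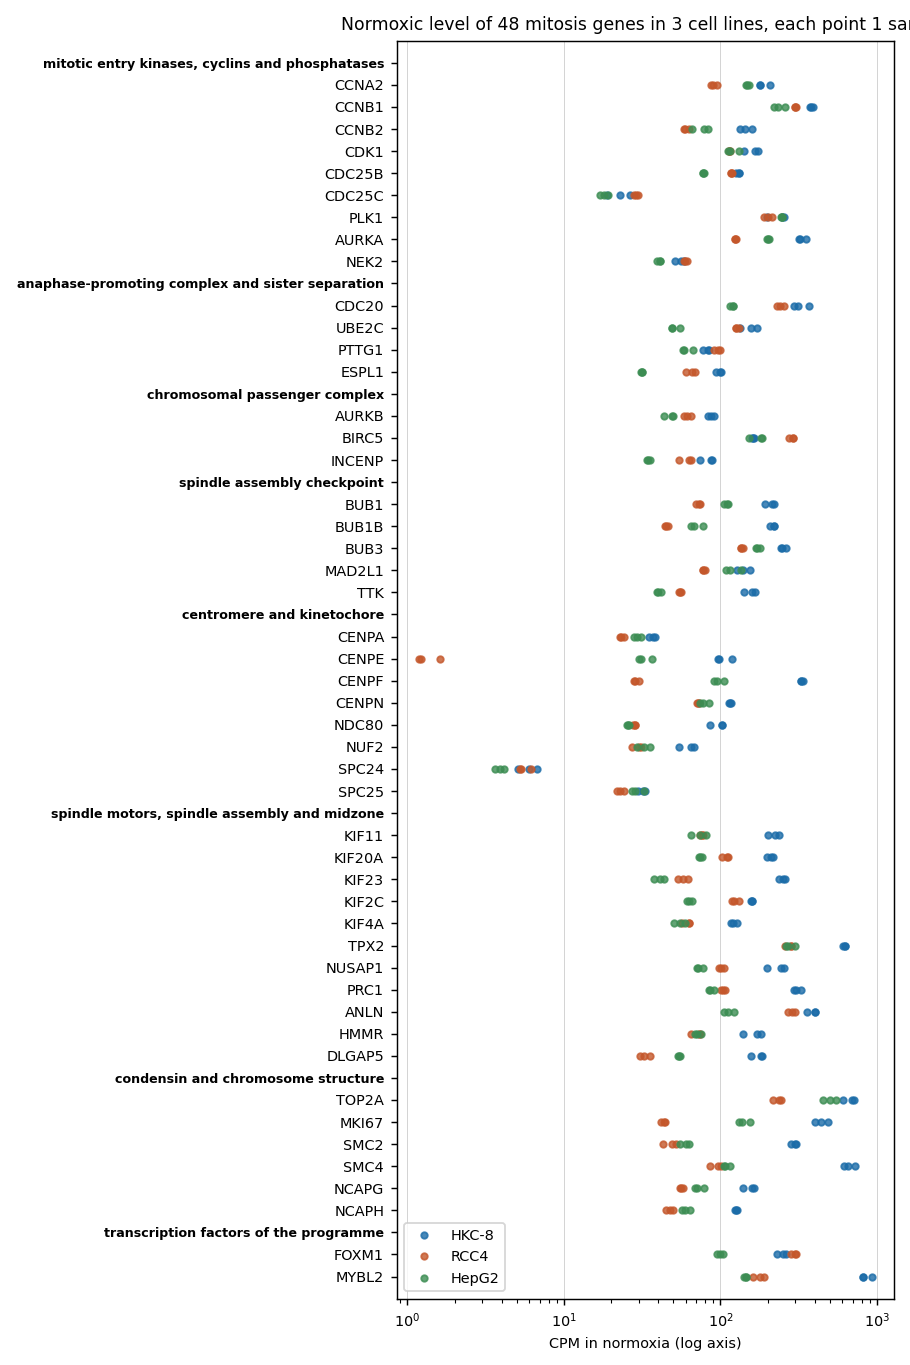
CPM of the 48 members in each normoxic sample on a log axis, grouped by role and coloured by line. HKC-8 points lie to the right for most genes, and the RCC4 points of CENPE, CENPF and MKI67 lie far to the left of the rest.

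The RCC4 response differed with the base composition of the transcripts, which was known for all 48 members. The 20 members that rose in RCC4 cells had a median GC content of 39.4% and the 11 that fell one of 53.3%. Of the 15 members under 40% GC, 12 rose and the rest were not called, where 39.3% of all genes in that range were called higher. Of the 12 members over 50% GC, 8 fell and the rest were not called, where 33.6% of all genes in that range were called lower. Across the 48 members the Spearman correlation of GC content with the log2 fold change was -0.74 in RCC4 cells, beside -0.24 over all genes with a value there. It was 0.039 in HKC-8 and -0.12 in HepG2 cells, beside 0.18 and 0.17 over all genes. With transcript length the correlation of the members was 0.50 in RCC4 cells, 0.57 in HepG2 cells and 0.42 in HKC-8 cells, beside 0.28, 0.15 and 0.12 over all genes, so that longer members tended to higher values in each line. Genes of a sample share their library and are not independent, so these are descriptions. With a correction for GC content in the fit, 20 members rose and 11 fell in RCC4 cells, 19 and 10 of them the same as without it.

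**Figure D5:**
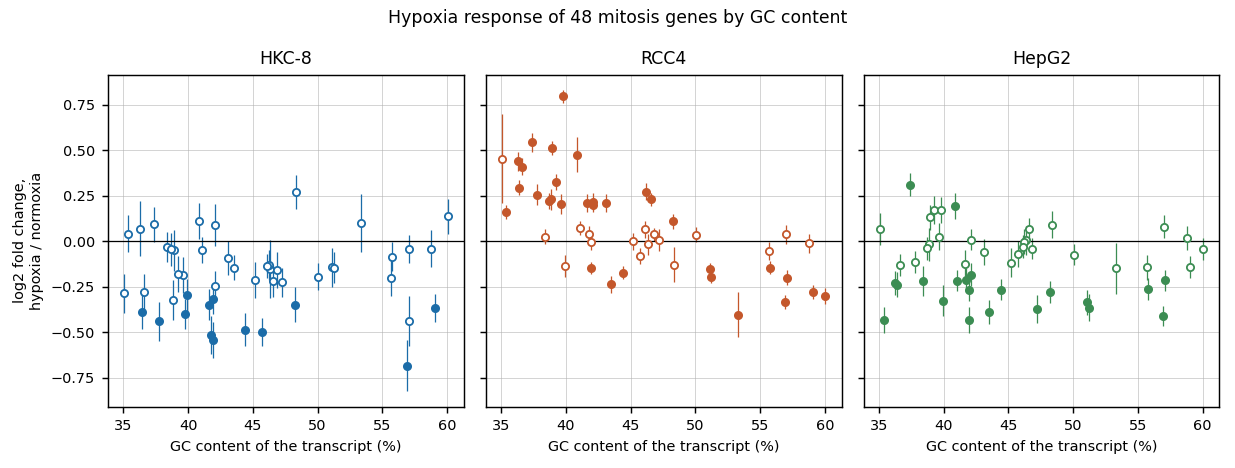
Log2 fold change (hypoxia over normoxia, bars of 1 SE) of the 48 members against the GC content of their transcript in percent, for each line, with filled points for called members. In RCC4 cells points fall from upper left to lower right, and the correlation with GC content is 0.039 in HKC-8 and -0.12 in HepG2 cells.

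The promoter elements can be set beside the calls for the 41 members with a promoter. Of the 18 such members that rose in RCC4 cells, 17 held TTTGAA or TTTAAA, and of the 7 that fell there 4 did. In HKC-8 cells 8 of the 11 that fell held either form, and in HepG2 cells 11 of the 13, beside 33 of all 41. A CCAAT box was held by 9 of the 11 lower members in HKC-8 cells, by all 13 in HepG2 cells, by 11 of the 18 higher members in RCC4 cells and by 29 of all 41. The HKC-8 counts are of members called without the replicate block and leave out the 13 called lower only with it. Among the printed promoters, CCNB1 and CDC20 fell in all 3 lines and CCNB2, which also holds CHR and CCAAT letters, was called in none without the block.

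Other cell-cycle genes are given for context from lists chosen by name, with earlier results of these data known. Of 108 further mitosis genes, 20 fell and 1 rose in HKC-8, 23 fell and 45 rose in RCC4, and 43 fell and 3 rose in HepG2 cells, with medians of -0.15, 0.064 and -0.13. The RCC4 median was 0.042 without normoxic replicate 3. The lower shares were 18.5%, 21.3% and 39.8%, beside 9.12%, 24.2% and 19.2% of all genes, and 41.7% were higher in RCC4 cells, beside 25.9%. With the replicate block 43 of them fell and 2 rose in HKC-8 cells, where 21.6% of all genes were called lower and 21% higher. With the block 16 of the genes of G1 and S phase that follow fell there and 4 rose. In RCC4 cells the spindle-pole protein ASPM led at 0.97 ± 0.057 (adjusted p = 1.33e-12), and in HepG2 cells the CDK subunit CKS2 at -0.70 ± 0.11 (adjusted p = 0.000252). Of 42 genes of G1 and S phase, 8 fell and 2 rose in HKC-8, 22 fell and 4 rose in RCC4, and 22 fell and 4 rose in HepG2 cells. The lower shares were 19%, 52.4% and 52.4%, beside 9.12%, 24.2% and 19.2% of all genes. In HepG2 cells the replication clamp PCNA was at -0.63 ± 0.079 (adjusted p = 3.87e-05), and in RCC4 cells the S-phase activator E2F1 at -0.45 ± 0.053 (adjusted p = 2.04e-07). Of 20 tested cell-cycle brakes, 3 rose and 1 fell in HKC-8, 9 rose and 5 fell in RCC4, and 3 rose and 5 fell in HepG2 cells. The higher shares were 15%, 45% and 15%, beside 11.2%, 25.9% and 19.9% of all genes, which also stand beside the higher counts of the other lists. The lower counts of the brakes stand beside 9.12%, 24.2% and 19.2% of all genes, in the same order of lines. With the replicate block 7 of the brakes rose (35%) and 4 fell in HKC-8 cells, beside the 21% and 21.6% of all genes. Cyclin G2, CCNG2, led the brakes in each line, at 1.41 ± 0.28 (adjusted p = 0.0106) in HKC-8, 0.66 ± 0.048 (adjusted p = 8.16e-11) in RCC4 and 1.31 ± 0.10 (adjusted p = 5.34e-07) in HepG2 cells. The CDK inhibitor p21, CDKN1A, was at 0.78 ± 0.20 (adjusted p = 0.0282) in HKC-8 cells and at -0.42 ± 0.035 (adjusted p = 8.98e-10) in RCC4 cells.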

How the data were processed

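PolyA+ RNA of HKC-8, RCC4+VHL and HepG2 cells was sequenced from ScriptSeq v2 libraries. The authors deposited 1 table of raw read counts per gene for each sample. Adapters were trimmed, fragments that did not map uniquely to GRCh37/hg19 were dropped, and reads were counted with HTSeq in its intersection-strict mode on UCSC genes. The submitters' processing notes name Trim Galore 0.3.3, TopHat2 2.0.8b, Bowtie 1.0.0, SAMtools 0.1.19, HTSeq 0.5.4p3 and DESeq2. Reads of transcripts with close copies are therefore undercounted. The 23106 genes of the tables were joined by symbol.

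Counts were analysed in R 4.3.3 with edgeR 4.0.16 (filterByExpr, TMM scaling, quasi-likelihood test, two-sided, Benjamini-Hochberg adjustment) within each line, as an interaction between lines, and between normoxic samples. The 2 interactions with RCC4 cells were added after seeing the data. DESeq2 1.42.0, median-of-ratios size factors, other low-count filters, the replicate number as a block, 1 fit of all 18 samples and leaving out each sample were the alternatives, and corrections for GC content and length were added after seeing the data. Same-numbered HKC-8 samples deviated together from their group means across genes (r = 0.11, 0.45 and 0.45), which met the rule for pairing of r over 0.1 in every pair, although the lowest lay under the highest correlation between unlike numbers (0.12) and 2 of 3 numbers correlated best with themselves, so blocked values are given where they change a call. Transcript length, GC content and GRCh37 positions came from the canonical transcript of the GENCODE annotation, and promoter letters from RefSeq with Python 3.11.15. The test was checked on simulated counts.

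The 48 members and all other lists were chosen with earlier results of these data known. Values in every sample were given for 12 core members, for the 5 members of each line with the largest called change among those whose groups did not overlap, and for members called in opposite directions. Of each other list at most the 3 called genes with the largest change in a line were named. Every member had at least 51 reads in every sample, the fewest being those of CENPE in RCC4 cells.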

Additional observations from a re-analysis of the deposited data

Results flagged for a closer look

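The members below were singled out because the response to hypoxia differed between lines by the interaction test of edgeR, at an adjusted p under 0.05 over all genes tested. Values are differences of log2 fold changes, and no explanation was weighed. Between HepG2 and HKC-8 cells they were -0.47 for CDK1, 0.43 for PTTG1 and 0.58 for ANLN. The share of the members called there did not exceed that of all genes. With 1 of the 12 samples left out in turn, the call of CDK1 was lost in 7 fits (adjusted p of 0.0643 to 0.107) and that of PTTG1 in 5 (0.0512 to 0.0612).

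Between RCC4 and HKC-8 cells, whose labelled oxygen and duration differ, the largest was 1.18 for ANLN. The cyclin and kinase genes gave 0.38 for CCNB1, 0.30 for AURKA and 0.54 for NEK2, and securin 0.40 for PTTG1. Checkpoint and kinetochore genes gave 0.44 for BUB1, 0.66 for TTK and 0.54 for NUF2. Motor and spindle genes gave 0.49 for KIF11, 0.44 for KIF20A, 0.54 for KIF23, 0.38 for KIF4A, 0.43 for TPX2 and 0.68 for DLGAP5. Chromosome genes gave 0.54 for TOP2A, 0.43 for SMC2 and 0.67 for SMC4, and the transcription factor MYBL2 was lower, at -0.46. When each of the 12 samples was left out in turn, the call of AURKA was lost in 9 fits (0.24 to 0.32, adjusted p of 0.0503 to 0.106), that of CCNB1 in 5, that of SMC2 in 3 and those of NUF2, KIF4A and MYBL2 in 1 each.

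Between RCC4 and HepG2 cells, whose labelled exposures differ likewise, the cyclin and kinase genes gave 0.26 for CCNA2, 0.28 for CCNB1, 0.58 for CDK1 and 0.24 for NEK2. Checkpoint and centromere genes gave 0.26 for BUB1B, 0.28 for BUB3, 0.53 for TTK and 0.37 for CENPA. Motor and spindle genes gave 0.38 for KIF20A, 0.33 for KIF23, 0.27 for KIF4A, 0.37 for NUSAP1, 0.61 for ANLN, 0.66 for HMMR and 0.36 for DLGAP5. Chromosome genes gave 0.37 for TOP2A, 0.53 for SMC4 and 0.25 for NCAPG, and MYBL2 was at -0.27. With 1 sample left out, the call was lost in 7 of 12 fits for BUB1B, in 5 for CCNA2 and KIF4A, in 4 for NEK2 and MYBL2, in 2 for KIF23 and in 1 for NCAPG. No group has more than 3 samples, so no outlier test was run, and RCC4 hypoxic replicate 1, described with CENPF and MKI67, was noticed in the values and when it was left out.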

How the results depend on the processing

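DESeq2, median-of-ratios size factors and both other low-count filters kept each count of called members within 1.5 times, except that DESeq2 called 1 member higher in HKC-8 cells. The replicate block gave 1 higher and 26 lower members in HKC-8 cells. It gave 7 and 3 for the response of HepG2 against HKC-8 cells (beside 11% and 9.06% of all genes), and 26 and 2 for that of RCC4 against HKC-8 cells. The HKC-8 numbers met the rule for pairing, but number 1 (0.11) lay under the highest correlation between unlike numbers (0.12). In RCC4 cells (pair correlations of -0.01, 0.03 and 0.01) and HepG2 cells (0.17, 0.06 and 0.18) the numbers did not meet the rule for pairing. With the block the counts there were 20 and 11, and 3 and 19, and each HepG2 sample correlated best with its own number. In HKC-8 as in HepG2 cells, pairing is a hint from the data and not from the design. ANLN was the higher HepG2 member gained.

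With a GC correction and the block, HKC-8 cells had 3 higher and 25 lower members, and with GC and length 2 and 25. For HepG2 against HKC-8 these corrections with the block gave 11 and 4, and 12 and 5, and for RCC4 against HKC-8 a lower count of 3 in both. Shares of all genes were given for the main and the blocked fits only. They do not apply to counts with a correction, in 1 fit of all 18 samples or with a sample left out. The GC correction gave 4 higher members in HepG2 cells and 0 lower for RCC4 against HepG2, as did GC with length for the latter. In 1 fit of all 18 samples, 20 members were lower in HKC-8 cells, 13 higher and 5 lower in RCC4 cells and 1 higher in HepG2 cells, and the response of RCC4 against HepG2 had 9 higher and 0 lower. The cause was not tested.

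Leaving out each sample in turn gave 4 to 14 lower members in HKC-8 cells and 1 to 5 higher in HepG2 cells. The responses gave 1 to 5 higher and 0 to 1 lower for HepG2 against HKC-8, 0 to 2 lower for RCC4 against HKC-8 and 0 to 2 lower for RCC4 against HepG2. Normoxic HepG2 against HKC-8 cells gave 0 to 1 higher. Some members that were not called changed sign, with ranges of -0.043 to 0.12 for CDK1, -0.16 to 0.038 for TOP2A, -0.011 to 0.17 for NUSAP1 and -0.11 to 0.18 for HMMR in HKC-8, -0.035 to 0.038 for CENPA in RCC4 and -0.017 to 0.042 for BUB1 in HepG2 cells. AURKB in RCC4 cells was at 0.023 with the GC correction and 0.088 with GC and length, CENPA there at -0.00046 with GC, and MKI67 in HepG2 cells at -0.055 with GC and length. Of the values of single genes under an alternative, 1489 kept direction and call, 127 lost the call, 37 gained it and 15 changed sign.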
